A study of Mus musculus with 8 samples.

Results

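Cell cycle and DNA replication genes were followed in 8 mouse mammary tumors on 47 genes: 14 of DNA replication and S phase, 11 that control the passage from G1 into S phase, and 22 of mitosis. They were listed by function, and each was read from the array's probe set that names this gene alone, taking the one with the highest mean signal over the 8 tumors where several did. In this way 46 of the 47 genes were measured, out of 19937 named genes on the array. The mitotic cyclin Ccnb1 had no such probe set in the annotation used, so its expression was not analysed here and only its promoter was counted. All tumors came from 4T1 cells, a mammary carcinoma line implanted orthotopically in BALB/c mice, and were taken after 18 days. The fourth mammary gland had received one local X-ray dose of 20 Gy before implantation in 4 cases (preirradiated tumors), and was untreated in the other 4 (nonirradiated tumors), so it was the bed and not the injected cells that was irradiated. The labels give neither the age of the mice nor whether each tumor came from its own mouse, so p-values measure the spread between these tumors, which may be technical.

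Cells commit to division when cyclin D with Cdk4 or Cdk6, and then cyclin E with Cdk2, inactivate the retinoblastoma protein and release E2F factors, which switch on genes of DNA synthesis. The MCM helicase is loaded on origins by Cdc6 and Cdt1 in G1 and unwinds DNA in S phase. Mitotic genes come on later, in G2, through complexes of Mybl2 and Foxm1 that act at a promoter element named the cell cycle genes homology region (CHR). Proliferating cells of a tumor pass through all of these phases, so the level of such genes in bulk tissue reflects how many cells divide and in which phase they are. In whole tumor tissue, fewer dividing cells and less of a transcript per cell cannot be told apart.

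The promoters of both classes differ in the words they carry, and the ones below show this for genes whose values are described further on. They are the 150 bases before the RefSeq start in the mouse reference GRCm38.p6, read 5′ to 3′ on the gene's strand, and not sequence of the 4T1 line. In the replication genes capitals mark E2F words, searched as TTCCCGC and TTCGCGC and TTGCCGC and TTGGCGC on both strands. The positions are Mcm6 at chr1:128359706-128359855 (minus strand), Cdc6 at chr11:98908001-98908150 (plus strand) and Rrm1 at chr7:102441545-102441694 (plus strand).
Mcm6: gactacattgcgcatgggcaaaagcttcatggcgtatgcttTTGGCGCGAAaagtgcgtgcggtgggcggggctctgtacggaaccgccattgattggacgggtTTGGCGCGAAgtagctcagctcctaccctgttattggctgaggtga
Cdc6: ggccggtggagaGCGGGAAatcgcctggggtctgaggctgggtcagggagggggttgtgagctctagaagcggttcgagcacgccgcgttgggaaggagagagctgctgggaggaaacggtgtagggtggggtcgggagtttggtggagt
Rrm1: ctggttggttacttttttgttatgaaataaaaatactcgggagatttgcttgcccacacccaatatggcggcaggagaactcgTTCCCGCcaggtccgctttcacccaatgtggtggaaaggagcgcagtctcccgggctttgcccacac

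In the mitotic genes capitals mark the CHR, searched as TTTGAA and TTCGAA on both strands. The positions are Cdk1 at chr10:69352913-69353062 (minus strand), Mki67 at chr7:135716380-135716529 (minus strand) and Top2a at chr11:99024190-99024339 (minus strand).
Cdk1: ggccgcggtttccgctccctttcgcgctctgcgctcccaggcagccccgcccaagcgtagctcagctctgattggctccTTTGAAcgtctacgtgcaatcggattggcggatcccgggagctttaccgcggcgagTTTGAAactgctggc
Mki67: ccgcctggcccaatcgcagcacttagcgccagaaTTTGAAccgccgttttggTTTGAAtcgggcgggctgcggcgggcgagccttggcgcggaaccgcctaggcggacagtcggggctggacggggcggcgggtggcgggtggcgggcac
Top2a: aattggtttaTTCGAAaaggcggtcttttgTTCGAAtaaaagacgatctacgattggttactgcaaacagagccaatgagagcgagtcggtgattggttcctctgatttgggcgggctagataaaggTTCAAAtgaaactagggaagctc

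Mcm6 holds 4 E2F matches in these 150 bases, as 2 blocks in which 2 matches overlap on opposite strands. Cdk1 holds 2 CHR matches, Mki67 holds 2 and Top2a holds 3. E2F words of Cdk1 and Mki67 lie in the stretches shown too and are left in lower case. Over windows from 250 bases before to 50 after each start, an E2F word was found in 9 of 12 replication genes with a window and in 3 of 16 mitotic genes, against 10.9% of all 27025 genes with a window. A CHR word was found in 12 of 16 mitotic genes and in 2 of 12 replication genes, against 21.7% of all genes. The CCAAT box, searched as CCAAT on both strands and often found near the CHR, stood in 14 of 16 mitotic and 8 of 12 replication genes, against 41.1%. Among the G1/S genes 2 of 8 held an E2F word and 1 of 8 a CHR word. ATTGG, the reverse complement of CCAAT, can overlap the E2F word TTGGCGC by 4 bases. Among other genes of the same pathways, 20 of 34 replication genes held an E2F word and 33 of 46 mitotic genes a CHR word. A word match is a description of the reference letters and does not show that a factor binds there. Mcm4, Gmnn, Ccnd1, Ccnd2, Ccne2, Ccna2, Aurkb, Kif20a, Tpx2, Cdc25c and Foxm1 had no window in the table used.

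**Figure D1:**
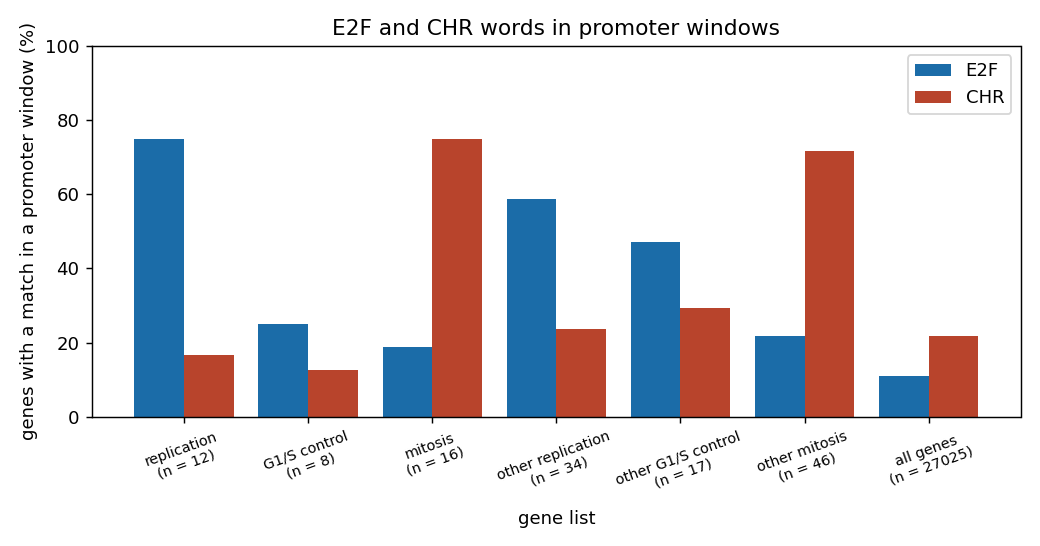
Share of genes, in percent, with at least 1 E2F or CHR word in a RefSeq promoter window (250 bases before to 50 after the start, both strands), by gene list, with the number of genes that have a window. E2F words stood in 9 of 12 replication members and CHR words in 12 of 16 mitotic members, against 10.9% and 21.7% of all genes.

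Values are log2 signals after robust multi-array averaging (RMA), which the authors deposited, so that 1 unit stands for a doubling of signal, and they are given as mean ± SD over 4 tumors of a group. Signals of different probe sets are not on a common scale, so no gene's level is set against another's. Epithelial identity of the tissue was visible in all tumors, with Krt8, a keratin of simple epithelia, between 12.45 and 12.63 and Epcam between 9.07 and 10.16. The arrays' medians ran from 5.937 to 5.977 in nonirradiated and from 5.982 to 5.996 in preirradiated tumors. The groups did not overlap in this, and their mean medians differed by 0.034, so class differences with each array centred on its median are given below. In preirradiated tumors 1 and 3 the mean of 10 skeletal muscle genes was 9.20 and 10.64, against 6.11 to 6.46 in the other 6 tumors, and the class values without these tumors are given where they bear on a result.

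Of the 46 genes, 0 were called different between preirradiated and nonirradiated tumors. With limma's moderated test and Benjamini-Hochberg adjustment over 34738 probe sets, 0 members passed an adjusted p of 0.05, as did 0% of all probe sets, and the smallest adjusted p of a member was 0.889. Without adjustment 0 members had a p under 0.05, where 5.8% of all probe sets passed. The filter of the study (log2 change of 0.4 or more in size, p of 0.05 or less without adjustment) was met by 0 members and by 0.642% of probe sets. In no member were all tumors of a group beyond those of the other, while 3.36% of probe sets had groups that did not overlap. The mean was higher in preirradiated tumors for 26 members and lower for 20, beside 49.5% of probe sets with a higher mean.

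The size of any group difference was also bounded for most members. The 95% interval of the log2 difference lay inside -0.4 and 0.4, the study's change limit, for 39 of 46 genes. The share of all probe sets with such an interval was not counted, so this is not read as a trait of the members. Cdc6, Tyms, Chek1, Bub1, Mad2l1, Kif23 and Cenpe had intervals that reached past it on one side, or on both for Bub1, and the farthest bounds were -0.476 (Cdc6) and 0.540 (Cenpe). A p that misses the threshold does not show that levels were equal. The median difference was -0.016 over the 14 replication genes, -0.022 over the 11 G1/S genes and 0.027 over the 21 mitotic genes, against -0.0038 over all 19937 named genes.

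**Figure D2:**
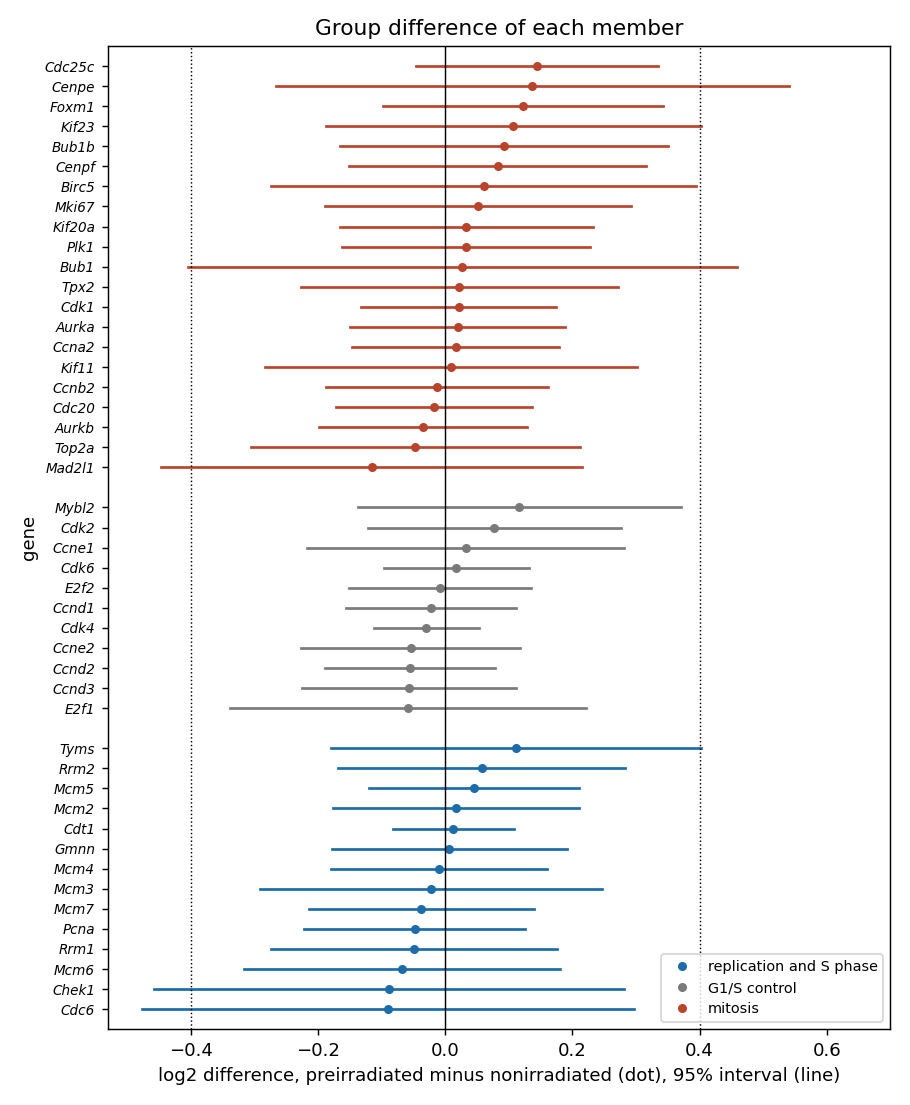
Log2 difference, preirradiated minus nonirradiated, for each of the 46 genes (dot) with its 95% interval from limma (line), colored by class, and dotted lines at -0.4 and 0.4. Every interval includes 0, and 39 of 46 lie between the dotted lines.

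Among the replication genes, the MCM subunits showed how little of the spread followed the groups. Mcm6 (probe set 10357436), a subunit of the hexameric helicase, was 9.91, 9.54, 9.61 and 9.47 in nonirradiated tumors 1 to 4 and 9.42, 9.51, 9.55 and 9.77 in preirradiated tumors 1 to 4. The highest values came from nonirradiated tumor 1 and preirradiated tumor 4, so that both groups held a high tumor and overlapped. Its difference was -0.068 (SE 0.108, limma adjusted p = 0.980). Mcm5 was 9.58, 9.29, 9.31 and 9.25 in nonirradiated tumors and 9.39, 9.44, 9.40 and 9.39 in preirradiated tumors. Here the preirradiated tumors were nearly alike, above nonirradiated tumors 2 to 4 and below nonirradiated tumor 1, with a difference of 0.046 (SE 0.072). Mcm2 was 9.36, 9.15, 9.25 and 9.15 against 9.10, 9.15, 9.30 and 9.44, highest in preirradiated tumor 4 and lowest in preirradiated tumor 1. Mcm3, Mcm4 and Mcm7 differed by -0.022, -0.010 and -0.037, each less than its SE.

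Cdc6, the loader of the helicase, had a wider range over tumors than any MCM subunit. It was 7.62, 7.28, 7.25 and 7.04 in nonirradiated tumors and 7.06, 6.87, 7.34 and 7.57 in preirradiated tumors. This is a 1.68-fold range from preirradiated tumor 2 to nonirradiated tumor 1, with a group difference of -0.089 (SE 0.169). Its partner Cdt1 ranged over 1.10-fold and differed by 0.013, and Gmnn, geminin, which blocks Cdt1 after origins have fired, differed by 0.0067 at a low signal between 5.48 and 5.76. Pcna (probe set 10487930), the sliding clamp of DNA polymerase, was 11.40, 11.21, 11.16 and 11.14 against 11.15, 11.07, 11.17 and 11.33. Apart from nonirradiated tumor 1 and preirradiated tumor 4, all Pcna values lay between 11.07 and 11.21.

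Of the genes of nucleotide supply, Tyms, thymidylate synthase, was 8.75, 8.60, 8.53 and 8.28 in nonirradiated tumors and 8.60, 8.48, 8.57 and 8.96 in preirradiated tumors, with its lowest value in nonirradiated tumor 4 and its highest in preirradiated tumor 4. The group difference of 0.11 (SE 0.126, limma adjusted p = 0.969) was within this spread. Rrm1 and Rrm2, the subunits of ribonucleotide reductase, differed by -0.049 and 0.058. Both were highest in nonirradiated tumor 1, but in preirradiated tumor 4 Rrm2, at 9.36, was close to its mean over 8 tumors. Chek1, the kinase of the replication checkpoint, was 8.65, 7.88, 8.17 and 7.95 against 8.06, 8.21, 8.12 and 7.89. Unlike Mcm6 and Cdc6, Chek1 was not high in preirradiated tumor 4, where it was the lowest of its group.

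The D-type cyclins drive Cdk4 and Cdk6 in response to growth factors. Ccnd1 was 12.42, 12.33, 12.39 and 12.24 in nonirradiated tumors and 12.20, 12.33, 12.41 and 12.36 in preirradiated tumors, a full range of 1.16-fold. Ccnd2 was 9.75, 9.61, 9.72 and 9.56 against 9.58, 9.71, 9.52 and 9.61. Ccnd3 was 9.34, 9.37, 9.51 and 9.33 against 9.14, 9.44, 9.35 and 9.38, with 1 low value in preirradiated tumor 1 and a range of 1.29-fold, against 1.17-fold for Ccnd2. These cyclins differed between groups by -0.022 (SE 0.058), -0.055 (SE 0.058) and -0.057 (SE 0.073). Cdk4 had the narrowest range of all members, with 12.09, 12.02, 12.04 and 12.08 against 12.03, 12.05, 11.98 and 12.05, or 1.08-fold. Cdk6 differed by 0.018 and ranged over 1.14-fold.

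The other G1/S genes act on or through cyclin E and E2F. E2f1, the activating E2F factor that is itself an E2F target, was 8.85, 8.75, 8.48 and 8.45 in nonirradiated tumors and 8.42, 8.45, 8.59 and 8.84 in preirradiated tumors. High values stood in nonirradiated tumors 1 and 2 and preirradiated tumor 4. Ccne1, cyclin E1, was 7.55, 7.31, 7.52 and 7.26 against 7.27, 7.32, 7.48 and 7.70, and its partner kinase Cdk2 was 8.99, 8.86, 8.97 and 8.74 against 8.89, 8.87, 8.91 and 9.19. Both were highest in preirradiated tumor 4. Ccne2 and E2f2 differed by -0.054 and -0.0077 and ranged over 1.29-fold and 1.21-fold. Mybl2, the B-Myb factor that links S phase to mitotic transcription, was 8.66, 8.45, 8.30 and 8.13 against 8.56, 8.34, 8.52 and 8.58, a difference of 0.12 (SE 0.111, limma adjusted p = 0.958).

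Mitotic genes were dominated by nonirradiated tumor 1, which had the highest value of 18 of 21. Mki67 (probe set 10568714), the antigen of the Ki-67 proliferation stain, was 10.57, 10.06, 10.20 and 10.18 in nonirradiated tumors and 10.43, 10.25, 10.29 and 10.24 in preirradiated tumors. The preirradiated tumors lay between nonirradiated tumor 1 and the rest of its group, with a difference of 0.052 (SE 0.105, limma adjusted p = 0.983). Top2a, the topoisomerase that untangles chromosomes, was 10.69, 10.17, 10.26 and 10.20 against 10.32, 10.16, 10.29 and 10.35. Cdk1, the mitotic kinase, was 10.84, 10.58, 10.78 and 10.60 against 10.71, 10.67, 10.70 and 10.80, over a narrow range of 1.19-fold. Its cyclins Ccna2 and Ccnb2 differed by 0.017 and -0.012.

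The largest group difference of any member was that of Cdc25c, the phosphatase that activates Cdk1. It was 6.44, 6.13, 6.20 and 6.12 in nonirradiated tumors and 6.35, 6.30, 6.29 and 6.51 in preirradiated tumors. All preirradiated tumors exceeded nonirradiated tumors 2, 3 and 4, and nonirradiated tumor 1 lay among them. The difference was 0.14 (SE 0.083, limma adjusted p = 0.889), or 6.37 ± 0.10 against 6.22 ± 0.15 (n = 4 each). Foxm1, a driver of mitotic transcription, was 9.14, 8.75, 8.79 and 8.79 against 8.98, 8.84, 9.08 and 9.07, a difference of 0.12 (SE 0.096). Here nonirradiated tumor 1 was above all preirradiated tumors and the rest of its group below them. Kif23, a kinesin of the spindle midzone, was 8.85, 8.23, 8.56 and 8.33 against 8.65, 8.47, 8.61 and 8.67. Its difference of 0.11 (SE 0.128) was below its SE.

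The spindle checkpoint genes did not move as one over the tumors. Bub1, the checkpoint kinase, had the widest range of all members, 1.81-fold, with 8.66, 7.83, 8.40 and 8.33 in nonirradiated and 8.69, 8.35, 8.19 and 8.09 in preirradiated tumors. Bub1b (BubR1) was 8.84, 8.39, 8.58 and 8.41 against 8.65, 8.45, 8.70 and 8.80, so in preirradiated tumor 4 it was the highest of its group where Bub1 was the lowest. Mad2l1, which inhibits the anaphase activator Cdc20, was 9.76, 9.18, 9.39 and 9.24 against 9.33, 9.45, 9.34 and 8.98, lowest in that same preirradiated tumor 4. Cdc20 itself ranged over 1.22-fold and differed by -0.017. Cenpe, a kinetochore kinesin, was 8.74, 8.02, 8.08 and 8.08 against 8.62, 8.09, 8.34 and 8.42, with nonirradiated tumor 1 and preirradiated tumor 1 above all others. Its difference of 0.14 (SE 0.176) had the highest upper bound of all intervals.

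The remaining mitotic genes lay between these. The kinases Plk1, Aurka and Aurkb, which drive entry, spindle assembly and chromosome biorientation, differed by 0.033, 0.020 and -0.034. Kif11, Kif20a, Cenpf, Tpx2 and Birc5, which serve spindle poles, cytokinesis, kinetochores, spindle assembly and the chromosomal passenger complex, differed by 0.0093, 0.034, 0.083, 0.023 and 0.061. Of these, Birc5 (survivin) and Kif11 ranged over 1.59-fold and 1.53-fold between tumors. The range over 8 tumors exceeded 0.5 on the log2 scale in 12 of 46 genes.

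The median spread between single tumors exceeded the median size of the group difference in all classes, as it did for all named genes. The median SD over 8 tumors was 0.134 for replication, 0.107 for G1/S and 0.156 for mitotic genes, against 0.085 for all named genes and 0.103 for named genes with a mean signal of at least 8.0. The median size of the group difference was 0.047, 0.054 and 0.034 for the classes, against 0.042 for all named genes and 0.058 for those with a mean of at least 8.0. Over all 46 members the median SD was 0.137 and the median size of the group difference 0.046, so the median member stood above the median gene in its spread between tumors and close to it in its group difference.

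**Figure D3:**
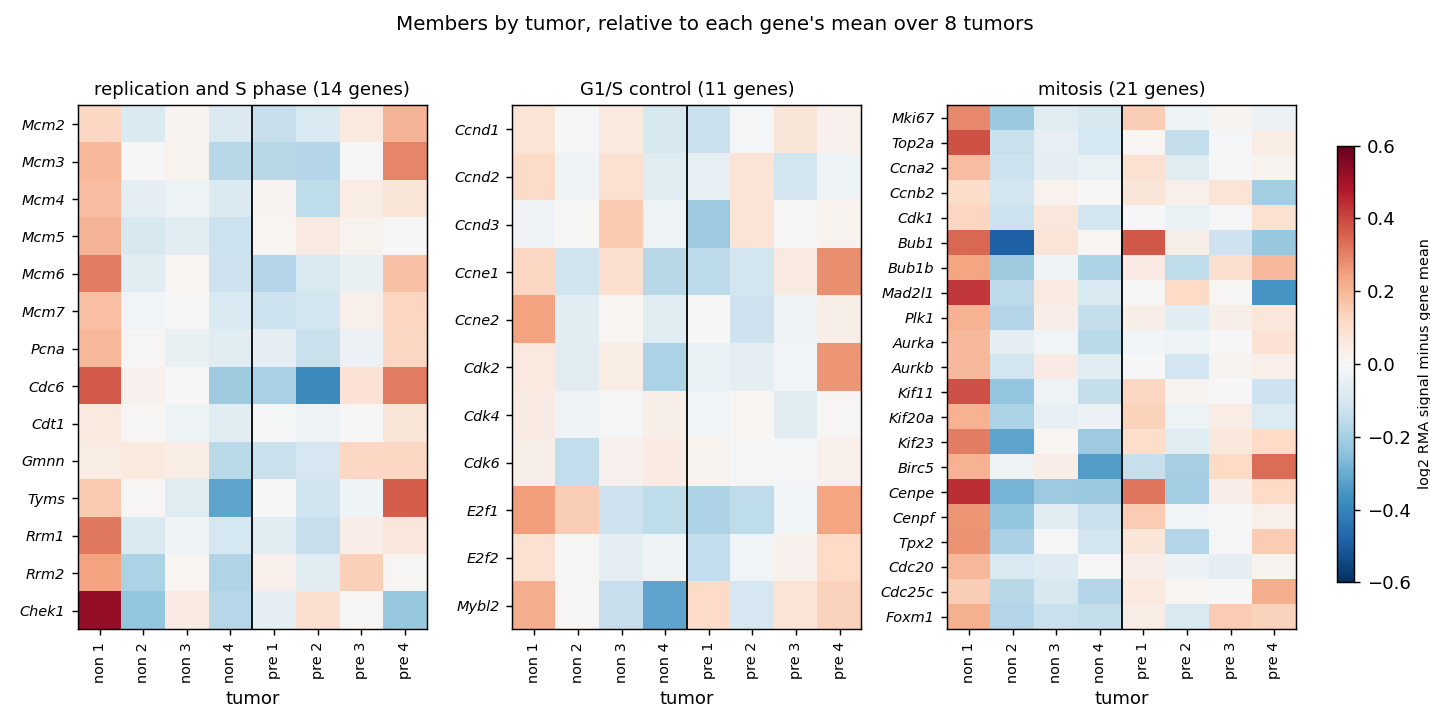
Log2 signal of each of the 46 genes in each tumor, minus the mean of the gene over 8 tumors, as color (red above, blue below the mean), by class, with a line between the 4 nonirradiated and the 4 preirradiated tumors. Nonirradiated tumor 1 is above the mean in 45 of 46 genes and nonirradiated tumor 4 in 4.

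Single tumors stood high or low across most members. In nonirradiated tumor 1, 45 of 46 genes were above their mean over 8 tumors, and it held the highest value of 33. In preirradiated tumor 4, 38 were above the mean, and it held the highest value of 9. Nonirradiated tumors 2 and 4 had 9 and 4 genes above the mean, and preirradiated tumor 2 had 10. The exception in nonirradiated tumor 1 was Ccnd3. Set against each gene's mean, the replication class averaged 0.22, -0.052, -0.0083 and -0.14 in nonirradiated tumors and -0.076, -0.10, 0.032 and 0.12 in preirradiated tumors. The range over tumors was 1.28-fold. The mitotic class averaged 0.25, -0.18, -0.025 and -0.12 in nonirradiated tumors and 0.080, -0.060, 0.022 and 0.031 in preirradiated tumors, a range of 1.35-fold. The G1/S class averaged 0.11, -0.025, 0.014 and -0.094 against -0.074, -0.036, -0.0008 and 0.10, a range of 1.15-fold.

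Because both groups held high and low tumors, the class means of the groups were close. The mean difference was -0.011 for replication, where the SD over tumors was 0.15 in nonirradiated and 0.10 in preirradiated tumors (n = 4 each). It was -0.0035 for G1/S, with SDs of 0.086 and 0.076, and 0.036 for mitosis, with SDs of 0.19 and 0.058. Without nonirradiated tumor 1 the mitotic SD of the nonirradiated tumors was 0.079 (n = 3), the replication SD 0.067 and the G1/S SD 0.054. Without preirradiated tumors 1 and 3, both high in muscle genes, the differences were 0.0048, 0.032 and 0.0034. With each array centred on its median, the differences for replication, G1/S and mitosis were -0.045, -0.037 and 0.0026.

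**Figure D4:**
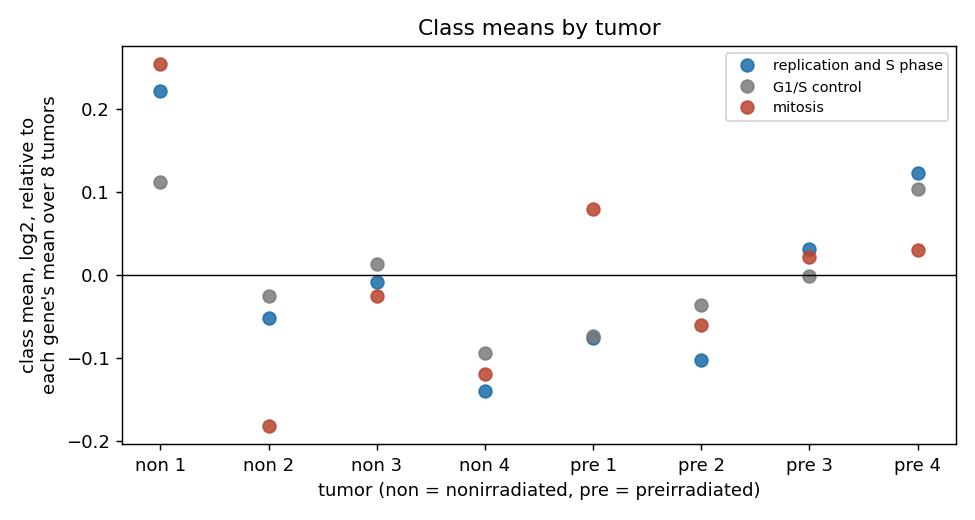
Mean of each class in each tumor, in log2 units relative to each gene's mean over 8 tumors, as points for the 14 replication, 11 G1/S and 21 mitotic genes. Nonirradiated tumor 1 is highest in all classes, at 0.22, 0.11 and 0.25, and mitotic and replication points part in nonirradiated tumor 2 and preirradiated tumors 1 and 4.

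The group comparison leaned on nonirradiated tumor 1. Without it, 43 of 46 members were higher in preirradiated tumors, beside 47.1% of all probe sets, and the mitotic mean difference became 0.127 and the replication difference 0.061. At an unadjusted p under 0.05 there were then 7 members, all higher, where 2.63% of all probe sets passed as higher: Mcm5 (0.12), Mki67 (0.16), Kif23 (0.23), Cenpe (0.31), Cenpf (0.18), Cdc25c (0.22) and Foxm1 (0.21). Of these, 0 passed the limma adjusted p of 0.05 or the study's filter, and the smallest adjusted p was 0.873. Nonirradiated tumor 1 is singled out here because it was highest in 33 of 46 members. Leaving it out raises most differences by itself, and members vary together, so these counts cannot be weighed against the shares of probe sets. Without nonirradiated tumor 2, the lowest in mitotic genes, the mitotic difference was -0.019.

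Other cell types also differed in nonirradiated tumor 1. Its mean of 8 measured T and NK cell genes was the highest, 7.39, against 6.70 to 7.03 in the other nonirradiated and 6.14 to 6.99 in the preirradiated tumors, with all 8 above their mean over tumors. Its mean of 10 epithelial genes was the lowest, 9.49, against 9.51 to 9.77 and 9.69 to 10.19, with 0 of 10 above the mean. Its fibroblast mean, 9.25, was the lowest as well, against 9.38 to 9.43 and 9.55 to 9.89. Preirradiated tumor 4, also high in replication genes, had a T and NK cell mean of 6.46, below all tumors but preirradiated tumor 1, and an epithelial mean of 9.82. Between groups, all 10 epithelial genes had higher means in preirradiated tumors, by 0.28 on average, and all 8 T and NK cell genes lower ones, by -0.39. Fibroblast genes differed by 0.32 on average (9 of 10 higher), the 9 adipocyte genes by 0.66, the 10 muscle genes by 1.85 and the 9 endothelial genes by 0.10. The muscle mean was high only in preirradiated tumors 1 and 3. Preirradiated tumors 2 and 4, at 6.19 and 6.35, lay within the nonirradiated range of 6.11 to 6.46. The adipocyte mean was highest in preirradiated tumor 1, at 8.07 against 6.07 to 6.81 in the others. In all these lists 0 genes passed the limma adjusted p of 0.05. The part of these cells in the values of the members was not tested.

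Replication and mitotic genes did not keep the same balance in every tumor. The replication mean minus the mitotic mean was -0.032, 0.13, 0.017 and -0.020 in nonirradiated tumors 1 to 4 and -0.16, -0.043, 0.010 and 0.093 in preirradiated tumors 1 to 4. Preirradiated tumor 1 leaned to mitosis, with 16 of 21 mitotic but 4 of 14 replication genes above their mean. Nonirradiated tumor 2 leaned to replication, with 5 of 14 replication and 0 of 21 mitotic genes above the mean, and had the lowest value of 14 mitotic genes. Preirradiated tumor 4 leaned to replication too, with 13 of 14 replication, 10 of 11 G1/S and 15 of 21 mitotic genes above the mean. Nonirradiated tumor 1, high in both, leaned slightly to mitosis, at -0.032.

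The highest contrasts came from 1 tumor of each group and the lowest were those of preirradiated tumors 1 and 2. The contrast averaged 0.024 ± 0.074 in nonirradiated and -0.024 ± 0.10 in preirradiated tumors (SD, n = 4 each), a difference of -0.047, less than either SD. Without preirradiated tumor 1 the difference was -0.0036, and without preirradiated tumors 1 and 3 it was 0.0014. Without nonirradiated tumor 2 it was -0.012, and without preirradiated tumor 4 it was -0.086. Preirradiated tumor 1 had the highest mean of 9 adipocyte genes, 8.07 against 6.07 to 6.81 in the others, the highest mean of 9 endothelial genes, 9.002 against 8.67 to 8.93, and the lowest T and NK cell mean, 6.14, with 0 of 8 above the mean. Preirradiated tumor 3, higher still in muscle genes, had a contrast of 0.010. Their part in the contrast was not tested.

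Other genes of the same pathways, which the 47 do not include, showed the same tumors at both ends. For 40 measured replication genes, such as the origin recognition complex, DNA polymerase subunits and clamp loader, minus 53 measured mitotic genes, such as condensins and kinetochore proteins, the contrast was -0.062, 0.093, -0.0076 and -0.010 in nonirradiated and -0.12, 0.030, 0.0007 and 0.079 in preirradiated tumors. Preirradiated tumor 1 was again lowest and nonirradiated tumor 2 highest, followed by preirradiated tumor 4. The next lowest was nonirradiated tumor 1, at -0.062. The sign differed from that of the members in nonirradiated tumor 3 and preirradiated tumor 2. These lists were chosen with earlier results of the same arrays known, and they share those arrays, so they are no independent sample.

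**Figure D5:**
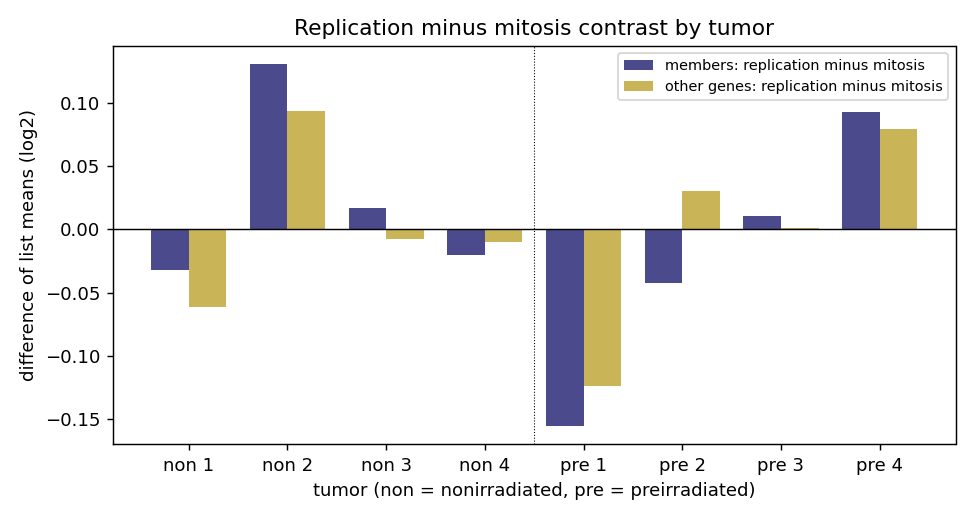
Replication mean minus mitosis mean in each tumor, in log2 units relative to each gene's mean over 8 tumors, for the members (14 minus 21 genes) and for other genes of the pathways (40 minus 53 genes). Preirradiated tumor 1 is lowest, at -0.16 and -0.12, and nonirradiated tumor 2 highest, at 0.13 and 0.093.

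Between groups, 0 of these other genes passed the adjusted threshold or the study's filter. Of the 40 replication genes 14 were higher and 26 lower in preirradiated tumors, with a median difference of -0.033. Prim2 (-0.10), a primase subunit, Rfc2 (-0.13), of the clamp loader, and Orc2 (0.087), of the origin recognition complex, had the smallest p, with limma adjusted p of at least 0.885. Of the 53 mitotic genes 19 were higher and 34 lower, with a median of -0.019, and Nusap1 (-0.15), Spc25 (-0.26) and Knstrn (-0.14), all spindle or kinetochore genes, led by p. Of 21 other G1/S genes, including E2F factors, pocket proteins and CDK inhibitors, 10 were higher and 11 lower. The growth factor-induced transcription factor Myc was 10.98 ± 0.088 in nonirradiated and 10.82 ± 0.078 in preirradiated tumors, a difference of -0.16 (SE 0.058). It was the 1 gene of these 3 lists with an unadjusted limma p under 0.05, where 5.8% of all probe sets passed. Its limma adjusted p was 0.813. E2f5 (-0.12) and Fbxw7 (0.067), an E2F repressor and a ubiquitin ligase adaptor for cyclin E, followed.

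Replication genes moved together over the tumors, as did mitotic genes, and G1/S genes did so less. The median Pearson r between genes over 8 tumors was 0.76 within the 91 replication pairs and 0.77 within the 210 mitotic pairs, against 0.018 over all pairs of named genes. It was 0.65 between replication and mitotic genes and 0.37 within the 55 G1/S pairs. With group means taken off it was 0.79, 0.80, 0.695 and 0.41, and without nonirradiated tumor 1 it was 0.71, 0.62, 0.43 and 0.20, in the same order. Over 8 tumors G1/S genes had a median r of 0.54 with replication genes, above that among themselves, and 0.38 with mitotic genes. Genes of 1 array share its RNA, its normalization and its mix of cells, so these values are descriptive. The class means of replication and mitosis had r = 0.77 and Spearman's rho of 0.64 over 8 tumors, and r = 0.47 without nonirradiated tumor 1. Without nonirradiated tumor 1 and preirradiated tumor 4, left out because their replication means were farthest from the median, r was 0.36, so the height of r rests in part on these tumors.

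Not every gene had its highest r with its own class. Each gene was set against the mean of the other genes of its class and against the mean of the other class. Mcm7 (0.95 with replication, 0.58 with mitosis), Cdc6 (0.90, 0.55) and Mcm3 (0.88, 0.48) tracked the replication mean more closely. Cenpf (0.63 with replication, 0.97 with mitosis), Mki67 (0.58, 0.95) and Kif20a (0.42, 0.88) tracked the mitotic mean. Birc5 (0.90 with replication, 0.48 with mitosis) and Aurka (0.94, 0.85), listed as mitotic, followed replication more closely, and Chek1 (0.46, 0.78), Rrm2 (0.74, 0.92) and Mcm5 (0.68, 0.87), listed with replication, followed mitosis. Of the G1/S genes, Ccne1 (0.83 with replication, 0.49 with mitosis) and E2f1 (0.82, 0.35) followed the replication mean more closely, and Ccne2 (0.89, 0.88) followed both. Ccnd3 (0.089, -0.292), Cdk4 (0.19, 0.27) and Cdk6 (0.205, 0.55) had low values with replication.

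Outside the 47, the genes most like the replication mean over 8 tumors were Prc1 (r = 0.98), Cenpa (0.98), Casp8ap2 (0.98), Stard7 (0.97), Taok3 (0.97), Tk1 (0.97), Incenp (0.97) and Wdhd1 (0.96). Prc1, Cenpa and Incenp have mitotic functions, and Tk1 is thymidine kinase of the salvage pathway. Those most like the mitotic mean were Gen1 (0.98), Kif2c (0.98), Asf1b (0.98), Smc6 (0.97), Hsd3b5 (0.97), Knl1 (0.97), Dlgap5 (0.97) and Zfp287 (0.96). Kif2c, Knl1 and Dlgap5 serve the spindle and kinetochore, Asf1b is a histone chaperone, and Gen1 cleaves joined DNA molecules. Hsd3b5 and Zfp287 were at low signals, 4.62 to 4.74 and 5.05 to 5.18, so their likeness rests on a narrow range. These values of r were the highest among named genes outside the 47, with olfactory receptors, predicted genes and small RNAs left out, and got no test.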

How the data were processed

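Total RNA of whole tumor tissue from 8 tumors was hybridized to Affymetrix Mouse Gene 1.0 ST arrays, 1 array per tumor. The deposited values are log2 signals per probe set, which the authors made by RMA with the affy package of Bioconductor 2.4, per the series' design text, and R 2.15.3, per the submitters' processing notes. RMA as generally run makes the arrays' distributions alike, so a shift of all transcripts cannot be seen. The medians of the deposited values still differed between groups, by 0.034 on average. Arrays have no read depth, and 4 arrays a group limit the precision.

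Groups came from the titles. Of 34760 probe sets, 34738 with a mean of at least 4.0 were fitted with limma 3.58.1 in R 4.3.3 (lmFit, eBayes, two-sided, no block, Benjamini-Hochberg over all), the moderated test the design text names. The fit was tested on simulated data. Gene symbols came from the platform annotation: 21640 probe sets list 1 symbol, 1321 several and 11799 none, and RefSeq (GRCm38.p6) gave the same symbol for every measured member by Entrez ID. Listed symbols absent from the annotation were looked up through RefSeq synonyms.

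The members, their 3 classes and all lists were chosen with earlier results of these data known. Values of every tumor are given for the 4 members of a class with the smallest p, the 3 with the largest SD, and Mki67, Top2a, Pcna, Mcm2, Cdk1 and the D cyclins. Of each other pathway list the 3 genes with the smallest p are named, and of all others the 8 genes most correlated with the replication or the mitotic mean, leaving out olfactory receptors, predicted genes and small RNAs. Scores over members got no p. Alternatives changed the normalization, expression limit, variance model, weights, block, probe set choice, class summary and samples. Marker lists of 11 cell types were averaged per tumor. Those not named with a value in the report were B cell, macrophage, neutrophil, granulocyte precursor and red blood cell genes, whose means differed between groups by -0.12 (7 genes), -0.17 (9), 0.016 (8), -0.11 (9) and 0.20 (2).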

Additional observations from a re-analysis of the deposited data

Results flagged for a closer look

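In each group of 4 tumors, 46 genes, 3 class means and the contrast were checked for a tumor far from the other 3 (Dixon's criterion at its 95% critical value), 100 checks in all, of which 7 stood out. Chance flags about 1 in 20. Nonirradiated tumor 1 stood apart upward in Top2a (10.69, the others 10.17 to 10.26), Cenpe (8.74, the others 8.02 to 8.08) and Foxm1 (9.14, the others 8.75 to 8.79). Preirradiated tumor 4 stood apart upward in Cdk2, at 9.19 against 8.87 to 8.91, and downward in the mitotic cyclin Ccnb2, at 10.35 against 10.59 to 10.64. Nonirradiated tumor 4 was low in Gmnn, at 5.48 against 5.68 to 5.70, and nonirradiated tumor 2 was low in Cdk6, at 10.32 against 10.50 to 10.52.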

How the results depend on the processing

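Under 17 alternative settings 0 members passed the adjusted threshold and 0 met the study's filter, and 0 probe sets passed the adjusted threshold under the 16 settings run for all probe sets. Members with an unadjusted p under 0.05 numbered 0 except for 7 without nonirradiated tumor 1. The probe sets past the study's filter went from 223 to between 181 and 385 when 1 tumor was left out, with 385 without preirradiated tumor 4 and 335 without preirradiated tumor 2. With 1 tumor left out the class differences ran from -0.060 to 0.061 (replication), -0.039 to 0.033 (G1/S) and -0.019 to 0.127 (mitosis), and the contrast from -0.086 to -0.0036. Other settings gave -0.045 to 0.0048, -0.037 to 0.032, 0.0026 to 0.052 and -0.056 to 0.0014. With each array centred on its median, 12 members changed sign, and without nonirradiated tumor 1, 17 did, so the sign of a small difference is no result. Of 781 member differences under these settings, 780 moved by less than 1 SD between tumors. The other was Cdk4 after a further quantile normalization, at 0.012. Leaving out 1 of 4 tumors cannot move a difference by 1 SD, and the block, variance model and expression limit leave it unchanged. This count is therefore no measure of stability. Median pairwise r ran from 0.71 to 0.82 for replication and from 0.62 to 0.84 for mitosis, and for pairs across both from 0.43 to 0.75. The titles number the tumors 1 to 4 in each group, but nothing says that equal numbers mark a shared mouse or day. The numbers were therefore not taken as pairs. Same-numbered tumors had r of -0.075, -0.289, -0.088 and -0.18 over all probe sets, and different-numbered tumors -0.174 to 0.347. Such values cannot show whether tumors shared a mouse or day. With the replicate block, 0 members and 0 probe sets passed the adjusted threshold, and 193 probe sets met the study's filter. Each block holds 1 tumor of each group, so it cannot change the class differences or the contrast (-0.047). Leaving out the muscle-rich tumors from the test of all probe sets and single genes, the gene-scaled contrast and the settings for pairwise r were chosen after seeing the data.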
